A study of Mus musculus with 9 samples.

Results

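The 9 early lymphoid priming genes *Flt3*, *Il7r*, *Dntt*, *Rag1*, *Rag2*, *Satb1*, *Ikzf1*, *Notch1* and *Cd27* were followed in hematopoietic stem cells (HSCs) from mouse bone marrow. They were taken by symbol from the 56748 genes of the count table, each symbol matched 1 row, and all 9 passed the filter on low counts in every comparison. RNA-seq was done on 9 libraries of cells sorted as SLAM-HSCs, which are Lin-Sca-1+c-Kit+ marrow cells positive for CD150 and negative for CD48. Young HSCs (yHSCs) came from mice of 6 to 10 weeks, and pre-aged HSCs (paHSCs) from mice of 14 to 16 months were split by surface P-selectin into a Selp_low and a Selp_high fraction, with 3 libraries per group. The mice of the study were females of a C57BL/6 background, with no transgene or treatment named for these groups. The paper describes the 3 libraries of each group as biological repeats. How many mice each library pooled is not given in the sources used here, so the p-values measure the spread between libraries, which may be partly technical. In other experiments the study also gated long-term HSCs as negative for CD34 and Flt3, and whether that gate was used for these libraries is not given either. Such a gate would bear directly on the *Flt3* and *Cd34* values below.

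Lymphoid priming is the low-level expression of lymphoid genes in multipotent cells before they commit to a lineage. Among progenitors, the receptor tyrosine kinase Flt3 marks those that keep lymphoid potential and lose long-term self-renewal, and the interleukin-7 receptor carries the survival signal of the earliest B- and T-cell precursors. Dntt adds untemplated bases at the joints of antigen receptor genes, which the recombinase made of Rag1 and Rag2 cuts, while Ikzf1 (Ikaros) and Satb1 act in the nucleus to open the lymphoid programme. Notch1 directs T-lineage choice in the thymus, and Cd27 is a receptor of the TNF receptor family found on progenitors and lymphocytes.

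Depth ranged from 24866975 to 35375310 counts per library. The 10 largest genes took 3.90% to 12.5% of the counts in 7 libraries, but 44.8% in Selp_low replicate 2 and 21.0% in Selp_low replicate 3. Expression is given as CPM, counts relative to the library total after scaling by TMM factors, and as FPKM, the same relative to gene length, wherever genes are compared with each other. *Selp*, the gene of the sorted protein, lay at 652, 265 and 264 CPM in Selp_high, at 109, 29.3 and 93.3 CPM in Selp_low and at 20.5, 30.0 and 23.2 CPM in yHSCs. All 12 HSC markers checked were detected in every library. The RNA of the surface markers used in the sort differed between groups. *Slamf1*, the gene of CD150, lay at 10.9, 15.2 and 19.3 CPM in yHSCs. It lay at 66.3, 62.6 and 41.0 CPM in Selp_low and at 198, 158 and 78.5 CPM in Selp_high. *Cd48* was at 24.6 ± 9.30 CPM in yHSCs, 169 ± 143 in Selp_low and 22.05 ± 14.49 in Selp_high (SD, n = 3). Whether the sorted groups held like mixtures of cells was not tested. Markers of other cells were present too. The summed CPM of 8 B-progenitor markers was 4870 and 6978 in Selp_low replicates 1 and 2, against 66.2 to 470 in the other 7 libraries. The 10 mature B- and plasma-cell markers summed to 101010 CPM in Selp_low replicate 2, of which *Jchain*, the joining chain of secreted antibodies, made up 98263. They summed to 2395 CPM in Selp_low replicate 1, to 3356 CPM in Selp_high replicate 2 and to 40.5 to 525 CPM elsewhere. Another of these markers, *Fcmr*, was at 684 and 723 CPM in Selp_low replicates 1 and 2, against 0.187 to 36.2 CPM elsewhere. The 8 neutrophil markers reached 198753 CPM in Selp_low replicate 3 and 64281 CPM in yHSC replicate 1, against 318 to 39868 CPM elsewhere. In bulk RNA, fewer cells of a type and less RNA per cell cannot be told apart.

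*Flt3*, *Dntt* and *Cd27* were the members whose young and pre-aged libraries did not overlap. In each of them all 3 yHSC libraries lay above all 6 paHSC libraries, as was true of 1.41% of the 22594 genes tested this way. Their mean levels in yHSCs were 58.5, 9.29 and 2.75 times those in Selp_high paHSCs, and 19.8, 10.01 and 2.53 times those in Selp_low paHSCs. The 6 members *Il7r*, *Rag1*, *Rag2*, *Satb1*, *Ikzf1* and *Notch1* did not separate young from pre-aged libraries in this way.

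*Flt3* (ENSMUSG00000042817; mm39 chromosome 5, 147267551 to 147337299, minus strand) showed the largest difference of the 9 between young and pre-aged cells. It lay at 207, 331 and 563 CPM in yHSCs, at 42.4, 5.40 and 7.68 CPM in Selp_low and at 4.29, 7.78 and 6.73 CPM in Selp_high paHSCs. The lowest young library was thus far above the highest pre-aged one, Selp_low replicate 1, which itself stood apart from the 5 other paHSC libraries. Group means were 367 ± 181, 18.5 ± 20.8 and 6.27 ± 1.79 CPM (SD, n = 3). In Selp_high against yHSCs the log2 fold change was -5.87 (SE 0.47) with an edgeR adjusted p of 0.0159. *Flt3* was the 1 member of 9 called lower in that comparison, where 0.0599% of 20017 genes were. That call was made in 2 of the 6 fits that leave out a library, and was lost without yHSC replicate 2 or 3 or Selp_high replicate 2 or 3 (adjusted p up to 0.132), while DESeq2 made it in all 6. In Selp_low against yHSCs the log2 fold change was -4.23 (SE 0.92), with an adjusted p of 0.332 in edgeR and of 9.2e-05 in DESeq2. Between the pre-aged fractions the log2 fold change was -1.57 (SE 0.81, edgeR adjusted p 0.478), and without Selp_low replicate 1 it was -0.06.

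A lncRNA on the opposite strand, *Gm26597*, overlaps *Flt3* by 936 bases. It had 105, 300 and 300 counts in yHSCs, 105, 2 and 15 in Selp_low and 8, 2 and 0 in Selp_high. Selp_low replicate 1 thus had as many counts as yHSC replicate 1, unlike in *Flt3*, and the other pre-aged libraries were low in both genes. The library kit does not mark strand, and reads of the shared bases cannot be assigned to either gene. The counts of *Gm26597* were small beside the 6109, 14257 and 20582 counts of *Flt3* in the young libraries and the 1295 counts in Selp_low replicate 1.

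*Dntt* (ENSMUSG00000025014; mm39 chromosome 19, 41017714 to 41047964, plus strand), which encodes terminal deoxynucleotidyl transferase, showed the second clear gap between ages. It lay at 23.9, 77.0 and 83.7 CPM in yHSCs, at 9.37, 2.96 and 6.11 CPM in Selp_low and at 2.89, 14.4 and 2.55 CPM in Selp_high paHSCs. The young library with the lowest level, replicate 1, was the one with the most neutrophil markers among the 3. The log2 fold changes against yHSCs were -3.21 (SE 0.83) in Selp_high and -3.25 (SE 0.61) in Selp_low, with edgeR adjusted p of 0.296 and 0.332. DESeq2 called both lower, with adjusted p of 0.00113 and 0.000157, and kept each call when any 1 library was left out. Between the fractions the log2 fold change was 0.10 (SE 0.80), it was -1.19 without Selp_high replicate 2, and the libraries overlapped.

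*Cd27* (ENSMUSG00000030336; mm39 chromosome 6, 125209585 to 125213973, minus strand) was the most abundant member per length in every group. It lay at 149, 174 and 230 CPM in yHSCs, at 121, 62.5 and 35.2 CPM in Selp_low and at 95.6, 52.4 and 52.9 CPM in Selp_high paHSCs. Replicate 1 of each pre-aged fraction was the highest of its group and came closest to the young libraries. The log2 fold change in Selp_high against yHSCs was -1.48 (SE 0.32), with an adjusted p of 0.190 in edgeR and 0.00338 in DESeq2. DESeq2 made that call in 4 of 6 fits that leave out a library and lost it without yHSC replicate 2 or 3. In Selp_low against yHSCs the log2 fold change was -1.27 (SE 0.47), and neither edgeR (adjusted p 0.378) nor DESeq2 (adjusted p 0.235) called it. *Vamp1* spans *Cd27* on the other strand, with 225 to 777 counts per library and no such gap between ages.

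The promoters of these 3 genes are printed because they are the members whose young and pre-aged libraries did not overlap. Each is the 250 bases before the RefSeq start in build GRCm38.p6, which is not the mm39 of the counts, and reads 5′ to 3′ on the gene's strand. *Flt3* is at chr5:147400490-147400739 on the minus strand, *Dntt* at chr19:41029025-41029274 on the plus strand and *Cd27* at chr6:125237028-125237277 on the minus strand. Capitals mark the E-box CANNTG, the letters that E proteins such as Tcf3 and Tcf12 recognise, which read as the same motif on both strands.
Flt3: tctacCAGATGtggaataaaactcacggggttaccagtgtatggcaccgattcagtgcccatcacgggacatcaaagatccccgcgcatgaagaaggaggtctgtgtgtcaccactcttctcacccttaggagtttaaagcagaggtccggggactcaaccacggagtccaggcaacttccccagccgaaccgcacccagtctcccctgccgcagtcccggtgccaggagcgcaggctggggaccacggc
Dntt: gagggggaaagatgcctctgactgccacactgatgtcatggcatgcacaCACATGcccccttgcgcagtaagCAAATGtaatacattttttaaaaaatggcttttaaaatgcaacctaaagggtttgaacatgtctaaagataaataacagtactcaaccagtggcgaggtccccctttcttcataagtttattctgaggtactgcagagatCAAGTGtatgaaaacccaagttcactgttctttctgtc
Cd27: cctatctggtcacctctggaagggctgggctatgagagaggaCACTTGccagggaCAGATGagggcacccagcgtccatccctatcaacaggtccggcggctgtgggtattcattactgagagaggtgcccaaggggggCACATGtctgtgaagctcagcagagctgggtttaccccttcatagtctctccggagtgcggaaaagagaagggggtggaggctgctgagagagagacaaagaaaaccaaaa
The *Flt3* window holds 1 E-box, the *Dntt* window 3 and the *Cd27* window 3, and 66.2% of the 32851 windows of this length in the table hold at least 1. All 9 members were found in the table, with 14 windows because *Satb1* has 5 starts and *Ikzf1* has 2, and 8 of the 14 hold an E-box. The core GGGAA bound by Ikaros, read on either strand, occurs in 10 of the 14 windows and in 56.2% of all windows. It occurs once in the *Flt3* and *Dntt* windows and in none of the *Cd27* or *Notch1* windows. These letter matches are descriptions of the sequence, and no binding was measured in these libraries.

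**Figure D1:**
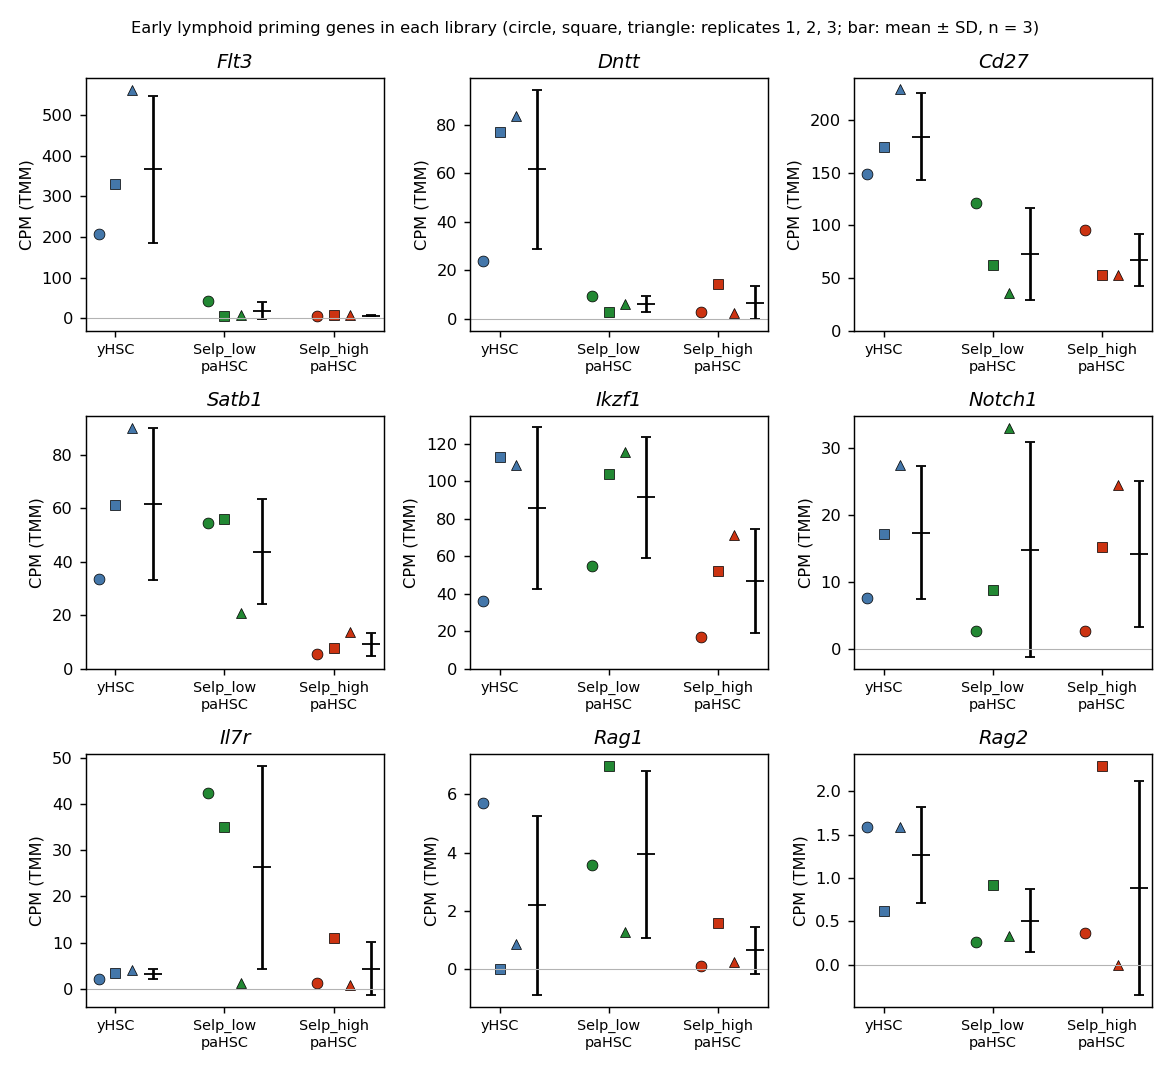
CPM of the 9 members in each library on linear axes, with circles, squares and triangles for replicates 1, 2 and 3 of yHSCs, Selp_low paHSCs and Selp_high paHSCs, and a bar for the mean ± SD (n = 3) beside each group. In *Flt3*, *Dntt* and *Cd27* the 3 young libraries sit above all 6 pre-aged ones, in *Satb1* the Selp_high libraries sit below the other 6, and in *Il7r* Selp_low replicates 1 and 2 stand alone at 42.4 and 35.1 CPM.

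*Satb1* (ENSMUSG00000023927; mm39 chromosome 17, 52043215 to 52140318, minus strand), a chromatin organizer that favours lymphoid over myeloid output, was lowest in the Selp_high libraries. It lay at 33.6, 61.2 and 90.2 CPM in yHSCs, at 54.5, 55.9 and 21.0 CPM in Selp_low and at 5.56, 7.73 and 13.9 CPM in Selp_high paHSCs. Each Selp_high library was below each of the other 6. *Satb1* was the 1 member of 9 whose Selp_high libraries were all below the Selp_low libraries, as 10.6% of 20370 genes were, so the count of 1 in 9 is near the share over all genes. The log2 fold change of Selp_high over Selp_low was -2.29 (SE 0.53), with an adjusted p of 0.338 in edgeR and 0.0111 in DESeq2. DESeq2 kept this call in 3 of 6 fits that leave out a library and lost it without Selp_low replicate 1, Selp_low replicate 2 or Selp_high replicate 1. Selp_low replicates 1 and 2, the libraries rich in B-cell markers, held the higher Selp_low values, and without both of them the log2 fold change was -1.14 (SE 0.66) on the 1 Selp_low library left, which is assumed to vary like the others. The part of B-cell RNA in the *Satb1* difference was not tested.

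Against yHSCs, *Satb1* in Selp_high paHSCs had a log2 fold change of -2.78 (SE 0.48), with an adjusted p of 0.108 in edgeR and 1.55e-06 in DESeq2, which made the call in all 6 fits that leave out a library. This comparison leaves out the Selp_low libraries but holds yHSC replicate 1 and Selp_high replicate 3, with 64281 and 39868 CPM of neutrophil markers. The part of other cells in it was not tested. In Selp_low against yHSCs the log2 fold change was -0.42 (SE 0.49, edgeR adjusted p 0.880). The comparisons share the yHSC or Selp_low libraries and are not independent of each other. Of the 6 gene models of uncertain status that overlap *Satb1*, 5 are on its strand, and each had between 0 and 220 counts per library. In Selp_high *Satb1* itself had 215, 314 and 484 counts, and 1 of these models, *E430014B02Rik*, had 2, 158 and 56. The low Selp_high values thus depend in part on how shared bases were counted.

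*Ikzf1* (ENSMUSG00000018654; mm39 chromosome 11, 11634980 to 11722926, plus strand), the zinc finger factor required for lymphoid development, was expressed in every library. It lay at 35.9, 113 and 109 CPM in yHSCs, at 54.9, 104 and 116 CPM in Selp_low and at 16.8, 52.1 and 71.4 CPM in Selp_high paHSCs. The groups overlapped, and replicate 1 was the lowest library of each group. The log2 fold change of Selp_high over Selp_low was -0.97 (SE 0.55), and neither edgeR (adjusted p 0.513) nor DESeq2 (adjusted p 0.510) called it. With replicate numbers as a block, which the residuals of the pre-aged fractions share, it was -1.14 (SE 0.26), with an adjusted p of 0.135 in edgeR and 0.00602 in DESeq2.

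*Notch1* (ENSMUSG00000026923; mm39 chromosome 2, 26347915 to 26406675, minus strand) varied more within groups than between them. It lay at 7.58, 17.1 and 27.3 CPM in yHSCs, at 2.65, 8.83 and 32.9 CPM in Selp_low and at 2.74, 15.2 and 24.4 CPM in Selp_high paHSCs. Each group had its lowest value in replicate 1 and its highest in replicate 3, and the labels do not say what a replicate number marks. The log2 fold changes were -0.31 (SE 0.75) in Selp_high over yHSCs, -0.19 (SE 0.86) in Selp_low over yHSCs and -0.07 (SE 1.02) between the fractions.

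*Il7r* (ENSMUSG00000003882; mm39 chromosome 15, 9505874 to 9530262, minus strand), the interleukin-7 receptor chain of common lymphoid progenitors, followed single libraries. It lay at 2.07, 3.43 and 4.07 CPM in yHSCs, at 42.4, 35.1 and 1.24 CPM in Selp_low and at 1.19, 10.9 and 0.916 CPM in Selp_high paHSCs. The 3 highest libraries were Selp_low replicates 1 and 2 and Selp_high replicate 2, and the same 3 had the highest summed B-progenitor markers, at 4870, 6978 and 470 CPM. In each pair of equal number the Selp_high library was the lower of the fractions. The log2 fold change of Selp_high over Selp_low was -2.60 (SE 1.39), with an adjusted p of 0.496 in edgeR and 0.210 in DESeq2, and with the replicate block it was -2.35 (SE 1.00), with an adjusted p of 0.300 in edgeR and 0.0159 in DESeq2. The log2 fold change of Selp_low over yHSCs was 3.12 (SE 1.10), with an adjusted p of 0.367 in edgeR and 0.0516 in DESeq2. Without Selp_low replicate 3 edgeR called *Il7r* higher (adjusted p 0.0305), and without Selp_low replicates 1 and 2 the log2 fold change was -1.36 (SE 1.02), and that of Selp_high over Selp_low was then 1.89 (SE 1.61). The part of B-lineage cells in the *Il7r* values was not tested.

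The recombinase genes had the lowest levels per length of the 9 members in every group, and counts that ranged widely between libraries. *Rag1* (ENSMUSG00000061311; mm39 chromosome 2, 101468627 to 101479846, minus strand) had 169, 0 and 31 counts in yHSCs, 109, 106 and 34 in Selp_low and 4, 64 and 8 in Selp_high paHSCs. A count of 0 in yHSC replicate 2 allows up to 3 counts, or 0.0851 CPM of the unscaled library total, and this limit covers counting error only. In CPM the yHSC libraries ran from 0 to 5.72, Selp_low from 1.27 to 6.98 and Selp_high from 0.103 to 1.58, so the groups overlapped. The log2 fold change of Selp_high over Selp_low was -2.62 (SE 1.16), and the adjusted p was 0.417 in edgeR, 0.145 in DESeq2 and, with the replicate block, 0.171 in edgeR and 0.00194 in DESeq2. Over the alternative fits it ran from -4.59 to -0.92. Selp_low replicates 1 and 2, the libraries rich in B-cell markers, were at 3.57 and 6.98 CPM, and replicate 3 was at 1.27. In yHSC replicate 1 *Rag1* was at 5.72 CPM beside 103 CPM of B-progenitor markers. The part of B-lineage cells in the *Rag1* values was not tested.

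*Rag2* (ENSMUSG00000032864; mm39 chromosome 2, 101455063 to 101462874, plus strand) had 47, 27 and 58 counts in yHSCs, 8, 14 and 9 in Selp_low and 14, 93 and 0 in Selp_high paHSCs. Replicate 2 alone supplied 93 of the 107 Selp_high counts. No fit called it in any comparison. *Iftap* spans both recombinase genes with 359 to 2108 counts per library, and it lies on the strand of *Rag1*, so the split of reads between them depends on how shared bases were counted.

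**Figure D2:**
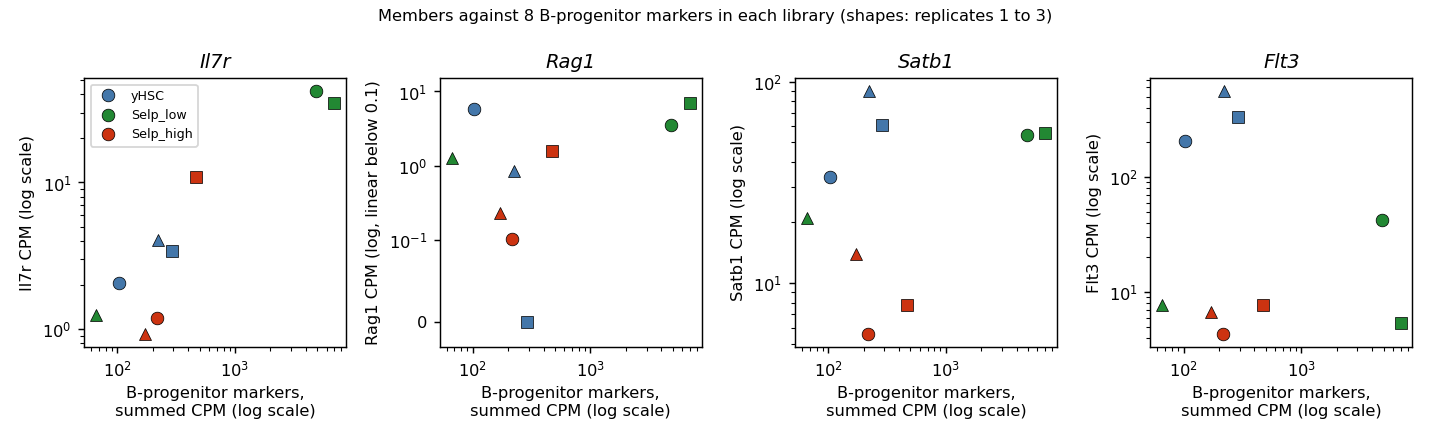
CPM of *Il7r*, *Rag1*, *Satb1* and *Flt3* in each library against the summed CPM of 8 B-progenitor markers, on log axes (the *Rag1* axis is linear below 0.1), with colours for the groups and shapes for replicates 1 to 3. *Il7r* is highest in the 3 libraries with the highest marker sums, whereas *Flt3* is 207 to 563 CPM in the young libraries and 42.4 CPM or less in the others at any marker sum.

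Set side by side, the edgeR test called 1 of 9 members in Selp_high over yHSCs and 0 of 9 in the other comparisons. In Selp_low over yHSCs 4 members had an unadjusted p under 0.05, as did 2306 of 20437 genes, and in Selp_high over Selp_low 1 member did, as did 2555 of 20370 genes, and edgeR called 0% of genes in both. DESeq2 called *Flt3*, *Dntt*, *Satb1* and *Cd27* lower in Selp_high over yHSCs, 4 of the 8 members with an adjusted p, where 1.03% of genes were called lower. It gave no p for *Il7r* there, because it took a count of that gene as an outlier. In Selp_low over yHSCs DESeq2 called *Flt3* and *Dntt*, 2 of 9 members against 0.965% of genes. In Selp_high over Selp_low it called *Satb1*, 1 of 9 members against 1.53% of genes. With the replicate block it called *Satb1*, *Rag1*, *Il7r* and *Ikzf1* lower, 4 of 9 members against 5.12% of genes, and edgeR with the block called 0 of 9 against 0.0393% of genes. limma voom called the same 4 members as DESeq2 in Selp_high over yHSCs, against 0.505% of genes, and the same 2 in Selp_low over yHSCs, against 0.519%. Counted by library, the same 4 members had all Selp_high libraries below all yHSC libraries, as 5.28% of genes did, and *Flt3*, *Dntt* and *Cd27* had all Selp_low libraries below them, as 6.74% of genes did.

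The median log2 fold change of the 9 members was -1.48 in Selp_high over yHSCs, against -0.03 over all genes tested. It was -0.42 in Selp_low over yHSCs, against 0.08, and -0.97 in Selp_high over Selp_low, against -0.11. Members with a negative fold change numbered 8, 6 and 7 of 9 in these comparisons. With library totals alone in place of TMM factors the median of all genes became -0.47 in Selp_low over yHSCs and 0.37 in Selp_high over Selp_low, and the negative members became 7 and 5. Those comparisons hold Selp_low replicate 2, whose 10 largest genes took the 44.8% of counts given above.

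**Figure D3:**
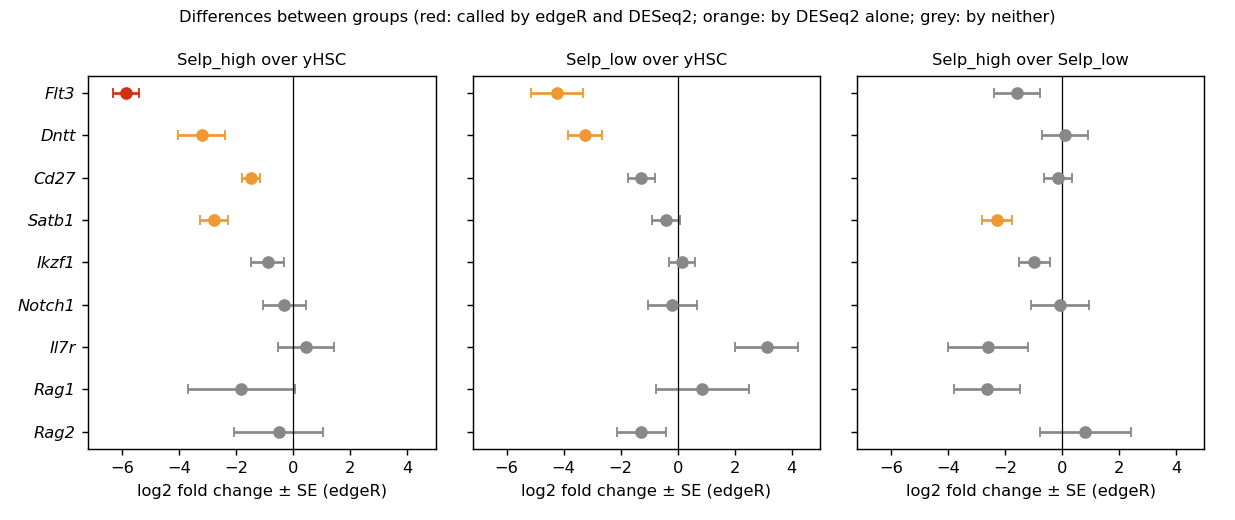
Log2 fold change ± SE (edgeR, 3 libraries against 3) of the 9 members in each of the 3 comparisons, in red where edgeR and DESeq2 both called the gene, in orange where DESeq2 alone did and in grey where neither did. *Flt3* at -5.87 in Selp_high over yHSC is the 1 red point, *Flt3* and *Dntt* lie well below 0 against yHSCs in both fractions, and *Satb1* lies below 0 in both comparisons of Selp_high.

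Per length, the order of the members in yHSCs was *Cd27* (79.2 FPKM), *Flt3* (59.4), *Dntt* (26.9), *Ikzf1* (9.43), *Satb1* (3.24), *Notch1* (1.22), *Il7r* (0.684), *Rag2* (0.370) and *Rag1* (0.331), each the mean of 3 libraries. In Selp_high paHSCs *Cd27* (28.8 FPKM) and *Ikzf1* (5.14) led, while *Flt3* stood at 1.02 FPKM, next to *Notch1* at 0.992 and *Il7r* at 0.932. In Selp_low paHSCs *Flt3* stood at 3.00 FPKM, below *Il7r* at 5.63 and beside *Dntt* at 2.68. The SDs of these neighbouring Selp_low means overlap.

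Across the 9 libraries, *Flt3* and *Dntt* had a Pearson correlation of log2 CPM of 0.92, *Flt3* and *Cd27* of 0.87 and *Dntt* and *Cd27* of 0.74. These points share the difference between the groups, and the values are descriptions. *Ikzf1* and *Notch1*, which did not separate the groups, had 0.73, and *Il7r* with *Flt3* had 0.01. Among 13768 protein-coding genes, the pattern most like *Flt3* was that of *Ccl4* (0.976) and *Ddx4* (0.968), most like *Dntt* that of *Mn1* (0.984) and *Cldn4* (0.983), and most like *Cd27* that of *Gpr171* (0.991) and *Cd209f* (0.982). *Il7r* was closest to *Bin1* (0.984) and *Ralgps2* (0.981), and *Satb1* to *Rgs2* (0.962) and *Senp7* (0.960). *Ikzf1* was closest to *Acin1* (0.974) and *Zfp628* (0.970), *Notch1* to *Pdzd8* (0.986) and *Naa40* (0.983), *Rag1* to *Dnah9* (0.986) and *Egfl6* (0.984), and *Rag2* to *Gpatch2* (0.963) and *Plekha4* (0.956). With 9 points and so many candidate genes, values of this size are found by search.

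The partners of the members were read from 7 lists. In the lymphoid-primed progenitor list, *Cd34*, the sialomucin of multipotent progenitors, was the 1 gene of 10 that edgeR called lower in Selp_high over yHSCs, at 75.4 ± 12.0 against 733 ± 214 CPM (SD, n = 3), with a log2 fold change of -3.30 (SE 0.29, adjusted p 0.0184). Like *Flt3*, *Cd34* was low in both pre-aged fractions. In Selp_low it was at 79.3 ± 78.8 CPM, with a log2 fold change of -3.15 (SE 0.77) and an adjusted p of 0.332 in edgeR and 0.00297 in DESeq2. DESeq2 also called *Emb* (-1.42, SE 0.32) and *Plac8* (-1.31, SE 0.29) lower in Selp_high over yHSCs. The list's median log2 fold change there was -0.62 with 9 of 10 genes below 0. Over all genes, edgeR called 0.0599% lower in that comparison and DESeq2 1.03%.

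Between the pre-aged fractions the same list had 9 of 10 genes below 0 and a median of -2.48. edgeR called 0 of them and DESeq2 called 6 lower, against 1.53% of genes. The 3 largest were *Ly6d* (-4.64, SE 1.62), *Ccr7* (-4.10, SE 1.58) and *Cd52* (-3.38, SE 0.76), which are genes of lymphoid cells. With the replicate block DESeq2 called 5 lower, against 5.12% of genes, and edgeR 0. The block kept *Cd52* (adjusted p 0.00146) and lost *Ly6d* (adjusted p 0.167) and *Ccr7* (adjusted p 0.244). In Selp_low over yHSCs edgeR called 0 of the list, and DESeq2 called 4 higher, among them *Ly6d* (6.24, SE 1.72) and *Cd52* (3.32, SE 0.64), against 1.99% of genes called higher. With the block DESeq2 called 2 higher, and the adjusted p of *Ly6d* was 0.0976. Replicate numbers did not pair Selp_low with yHSCs, so the blocked fit cannot weigh on these calls. *Ly6d* was at 915 ± 837 CPM in Selp_low, against 37.0 ± 23.4 in Selp_high and 12.9 ± 4.14 in yHSCs. Its spread in Selp_low was nearly as large as its mean, in the group whose replicates 1 and 2 held the B-cell markers, and the part of those cells was not tested.

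Of the 20 lymphoid transcription factors, edgeR called 0 in any comparison. DESeq2 called *Gfi1*, a repressor that restrains HSC cycling, lower in Selp_high over yHSCs, at 22.0 ± 7.19 against 53.1 ± 20.1 CPM (log2 fold change -1.29, SE 0.35, DESeq2 adjusted p 0.0352). In Selp_low over yHSCs it called *Ikzf3* (4.03, SE 1.33), *Tcf7* (3.73, SE 1.21) and *Ets1* (2.33, SE 0.49) higher, all genes that mature lymphocytes use. It called *Tcf7* (-2.92, SE 1.05) and *Ets1* (-2.47, SE 0.62) lower in Selp_high over Selp_low. With the replicate block the call of *Ets1* was kept (adjusted p 4.31e-05), that of *Tcf7* was lost (adjusted p 0.183) and *Lef1* was called lower (-2.93, SE 0.68, adjusted p 0.000671). In Selp_low over yHSCs the adjusted p of *Ikzf3* with the block in DESeq2 was 0.0606. Replicate numbers did not pair those groups, so that fit cannot weigh on the call. The list's median was -0.21 in Selp_high over yHSCs. Without the block DESeq2 called 1 of the 20 lower there, against 1.03% of genes. In Selp_low over yHSCs it called 3 higher, against 1.99%, and in Selp_high over Selp_low 2 lower, against 1.53%. With the block it called 2 lower between the fractions, against 5.12%.

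In the Notch list, DESeq2 called the Notch target genes *Hes1* and *Hey1* lower in Selp_high over yHSCs, while *Notch1* itself was not called. *Hes1* was at 35.3 ± 21.0 against 202 ± 118 CPM (log2 fold change -2.54, SE 0.70, DESeq2 adjusted p 0.0063), and *Hey1* at 0.332 ± 0.399 against 12.4 ± 10.4 CPM (-5.21, SE 1.44, DESeq2 adjusted p 0.000525). edgeR called 0 of the 20 genes, and the other 18 were called by neither tool. DESeq2 called 1.03% of all genes lower there. *Jag2*, a Notch ligand, was called lower by DESeq2 in Selp_low over yHSCs (-2.79, SE 0.92, DESeq2 adjusted p 0.0430), where 0.965% of genes were. With the replicate block, whose numbers did not pair those groups, it was not called (DESeq2 adjusted p 0.131). Between the pre-aged fractions DESeq2 called 0 of the list without the block, and with it *Hes1* (-1.70, SE 0.29, adjusted p 6.83e-07) and *Notch2* (-1.22, SE 0.35, adjusted p 0.00768) lower in Selp_high. These were 2 of 20 genes, against 5.12% of all genes.

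The partners of Flt3, of the recombinase and of Cd27 gave no call in fits without the replicate block. Of the 10 genes of Flt3 signalling, which hold its ligand and adaptors, 0 were called by edgeR or DESeq2 in any such fit, and their median log2 fold change in Selp_high over yHSCs was -0.06. The 12 genes of V(D)J recombination and end joining had a median of -0.12 there, and the 8 tested genes of Cd27 signalling one of -0.26, with 0 calls in any such fit. With the block DESeq2 called *Cblb* (-1.02, SE 0.33, adjusted p 0.0262), *Hmgb2* (-1.18, SE 0.26, adjusted p 0.000335), *Traf5* (-1.79, SE 0.56, adjusted p 0.0190) and *Nfkb2* (-1.04, SE 0.36, adjusted p 0.0426) lower in Selp_high over Selp_low, where it called 5.12% of all genes lower. edgeR with the block called 0 genes of the 7 lists in any comparison. In the 11 genes of IL-7 receptor signalling DESeq2 called 1 without the block, the kinase *Jak3*, at 168 ± 35.4 in Selp_high against 64.4 ± 3.30 CPM in Selp_low (log2 fold change 1.38, SE 0.25, DESeq2 adjusted p 0.0495), where 0.748% of genes were called higher. With the block it called *Jak3* (adjusted p 8.44e-05) and the cytokine gene *Il7* (1.64, SE 0.45, adjusted p 0.00598) higher, against 4.33% of genes.

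**Figure D4:**
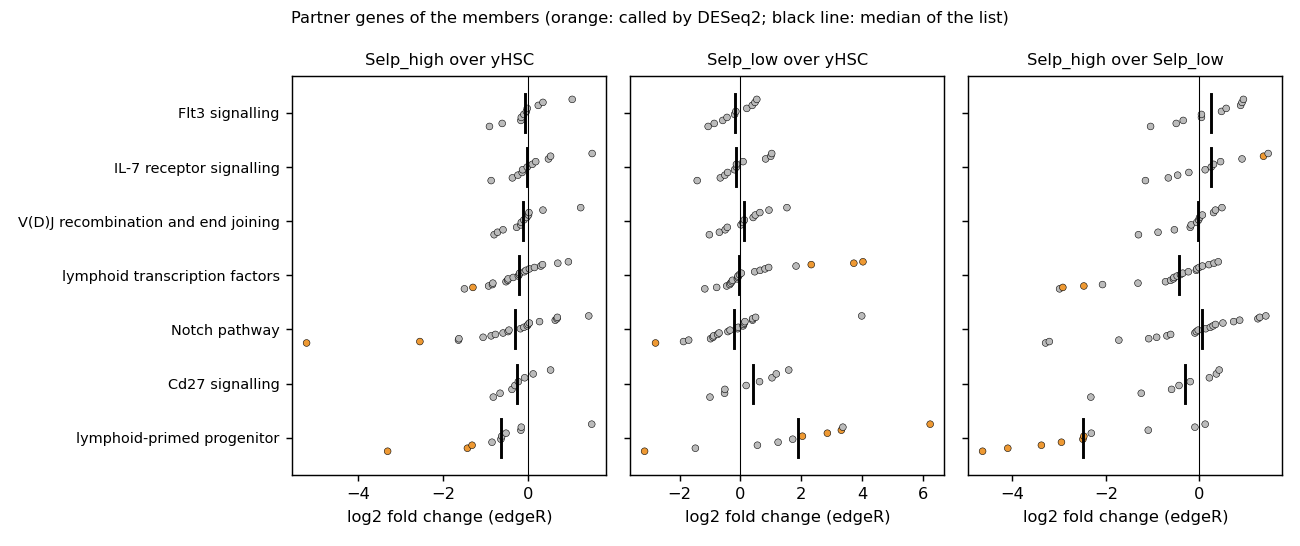
Log2 fold changes (edgeR) of the genes of 7 partner lists in the 3 comparisons, each point a gene, in orange where DESeq2 called it without the block, with a black line at the list's median. Medians of Flt3, IL-7 receptor and V(D)J lists lie near 0, and the lymphoid-primed progenitor list has its median at -2.48 in Selp_high over Selp_low and at 1.88 in Selp_low over yHSC, with *Cd34* at the low end in both comparisons with yHSCs.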

How the data were processed

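Bulk RNA-seq of 9 libraries of sorted mouse SLAM-HSCs was used, with 3 libraries per group. The authors trimmed reads with fastp, aligned them by HISAT2 (2.2.1) and counted them by featureCounts (2.0.6). The deposited values are raw counts per gene, beside a gene length. The submitters' processing notes name mm39 as the build, whereas annotation release, strand setting and handling of multi-mapping reads are not given in the sources used. All sample columns of the table were used (0 left out).

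Counts were analysed in R 4.3.3. Each pair of groups was fitted alone on the whole table, with TMM factors, filterByExpr, edgeR's (4.0.16) quasi-likelihood test (legacy setting) and Benjamini-Hochberg adjustment over all genes tested. Calls needed an adjusted p no higher than 0.05 and a log2 fold change of 1 or more in size. An exact permutation test of 3 against 3 libraries cannot go below p = 0.1 and was not used. DESeq2 (1.42.0), the study's tool, limma voom (3.58.1), other scalings and filters, a fit of all 9 libraries, the replicate block and fits leaving out libraries were alternatives. The scripts were tested on simulated data. Plots were made by matplotlib 3.10.9 under Python 3.11.15.

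Residuals of equally numbered libraries correlated at 0.178, 0.277 and 0.303 between the pre-aged fractions, all above 0.1, and at -0.417 to 0.0917 against yHSCs, so the numbers were taken to pair the fractions alone. The members and lists were chosen with earlier results of these data known. Named genes were the members, every gene of a partner list that edgeR called and otherwise up to 3 with the largest change in a comparison, leading markers, the 2 genes most like each member, overlapping genes and *Selp*. *Emb*, *Plac8*, *Gfi1*, *Ets1*, *Jak3*, *Cblb*, *Hmgb2*, *Traf5*, *Nfkb2*, *Il7*, *Lef1*, *Notch2*, *Klrb1c*, *Slamf1*, *Cd48*, *Cd3d*, *Cd3e* and *Cd3g* were named after their values were seen. DESeq2 called each of them in a comparison, with or without the block. Promoter sequences came from a RefSeq table of build GRCm38.p6. They were not joined to mm39 coordinates.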

Additional observations from a re-analysis of the deposited data

How the results depend on the processing

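Direction held under every alternative for *Flt3* and *Satb1* in all 3 comparisons, for *Dntt* and *Cd27* against yHSCs and for *Ikzf1* in both comparisons of Selp_high. The number of members called depended on the tool. In Selp_high over yHSCs, where edgeR called 1, it was 4 with no filter, with DESeq2, with voom and with DESeq2 and the block, 0 in the 9-library fit, and 0 to 1 (edgeR) or 3 to 4 (DESeq2) when 1 library was left out. In Selp_low over yHSCs, where edgeR called 0, it was 2 with no filter, with DESeq2, with voom, with DESeq2 and the block and without yHSC replicate 1 and Selp_low replicate 3 together (*Il7r* higher and *Dntt* lower), 0 to 1 (edgeR, the 1 being *Il7r* without Selp_low replicate 3) or 2 to 3 (DESeq2) when 1 library was left out. In Selp_high over Selp_low, where edgeR called 0, it was 1 with no filter and with DESeq2, 0 in each edgeR fit without 1 library and 0 to 3 in those of DESeq2. With the replicate block edgeR called 0 members in every comparison, so the *Flt3* call was lost (adjusted p 0.120), and DESeq2 with the block called 4 in Selp_high over Selp_low, the pair whose numbers match. The numbers did not match in the comparison that held the *Flt3* call, so its loss there cannot weigh on that call. The block changed no other edgeR call.

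Besides those, *Rag1* in Selp_high over Selp_low and *Rag2* in Selp_low over yHSCs kept their sign. The rest changed sign in some setting and were called in none of those settings. In Selp_high over Selp_low, *Dntt* changed sign with voom (-0.66) and with the replicate block (-0.38 in edgeR and DESeq2), *Rag2* with voom (-2.49) and the block (-0.44, DESeq2 -0.51), *Notch1* with voom (1.58), library totals alone (0.48), no filter (0.00) and the block (0.12, DESeq2 0.11), *Cd27* with library totals alone (0.20), and *Il7r* (1.89) and *Cd27* (1.01) without Selp_low replicates 1 and 2. In Selp_high over yHSCs, *Il7r* changed sign with voom (-0.89) and the block (-0.50, DESeq2 -0.52) and *Rag1* with voom (0.80). In Selp_low over yHSCs, *Ikzf1* changed sign with library totals alone (-0.52), voom (-0.32) and without yHSC replicate 1 and Selp_low replicate 3 (-0.46), and *Il7r* (-1.36), *Rag1* (-0.81) and *Notch1* (0.93) did without Selp_low replicates 1 and 2.

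Over the edgeR fits without 1 library, the ranges that cross 0 were -1.19 to 0.53 (*Dntt*; DESeq2 -1.17 to 0.54), -1.44 to 1.59 (*Rag2*; DESeq2 -1.41 to 1.55), -0.73 to 1.30 (*Notch1*; DESeq2 -0.74 to 1.26) and -0.48 to 0.47 (*Cd27*; DESeq2 -0.48 to 0.46) in Selp_high over Selp_low, -1.62 to 0.92 (*Il7r*; DESeq2 -1.63 to 0.93), -3.77 to 0.64 (*Rag1*; DESeq2 -3.90 to 0.73), -2.79 to 0.07 (*Rag2*; DESeq2 -2.84 to 0.04) and -0.95 to 0.16 (*Notch1*; DESeq2 -0.93 to 0.18) in Selp_high over yHSCs, and -0.27 to 0.40 (*Ikzf1*; DESeq2 -0.22 to 0.38) and -1.61 to 0.30 (*Notch1*; DESeq2 -1.55 to 0.30) in Selp_low over yHSCs. Single DESeq2 fits that changed sign by small amounts were *Dntt* without Selp_low replicate 2 (-0.25), *Notch1* without Selp_high replicate 1 (0.42) and *Cd27* without Selp_high replicate 2 (0.04) or 3 (0.05) in Selp_high over Selp_low, *Notch1* without yHSC replicate 3 (0.08) in Selp_high over yHSCs, and *Ikzf1* without Selp_low replicate 3 (-0.07) and *Notch1* without Selp_low replicate 2 (0.05) in Selp_low over yHSCs. Without yHSC replicate 1 and Selp_low replicate 3 *Notch1* was at -1.94 in that last comparison. Apart from what leaving out a library shows by its construction, the cause was not tested. The DESeq2 fits with the block or without a library, and those leaving out 2 libraries, were chosen after seeing the data. With 3 libraries per group and 0 to 169 counts per library for *Rag1*, small differences were not detectable.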

Other observations

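Markers of HSCs, the sorted cells, and of further cell types were read beside the members. The 6 megakaryocyte markers summed to 111 to 173 CPM in yHSCs, to 149, 1519 and 2065 CPM in Selp_low and to 945, 5721 and 3702 CPM in Selp_high paHSCs, so that the group with the lowest *Flt3* and *Satb1* had the highest sums in 2 of its 3 libraries. *Gp1bb*, a platelet glycoprotein gene, was at 0 in the 3 yHSC libraries. The 12 HSC markers summed to 2695 to 3817 CPM in Selp_high, 1141 to 1896 CPM in Selp_low and 1423 to 2838 CPM in yHSCs. The 9 T- and NK-cell markers summed to 352 to 939 CPM in Selp_low, against 145 to 175 CPM in Selp_high and 87.7 to 113 CPM in yHSCs. In Selp_high over Selp_low 6 of the 8 tested had a log2 fold change below 0 and 2 above. *Klrb1c* was highest in Selp_high, at 62.9 ± 33.8 CPM, against 16.6 ± 8.27 in Selp_low and 3.37 ± 0.521 in yHSCs (SD, n = 3). In Selp_low replicate 3 *Nkg7* made up 619 of the 639 CPM, while *Cd3g*, *Cd3d* and *Cd3e* were at 0.824, 1.87 and 0.487 CPM. The 6 plasmacytoid dendritic cell markers stayed at 41.4 CPM or less in every library. Their part in the members' values was not tested.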
